A study of Mus musculus with 8 samples.

Results

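H3K79me2 peaks were compared over the genes of 4 groups of splicing factors in cultured mouse spermatogonial stem cells with and without an inhibitor of DOT1L, the enzyme that methylates lysine 79 of histone H3. The genes were chosen by symbol alone, as the RefSeq protein-coding genes on chromosomes 1 to 19 whose symbol begins with Srsf, Hnrnp, Sf3a or Sf3b, or is Prpf with a number and at most 1 letter. The rule gave 53 of 20665 genes, namely 11 Srsf, 20 Hnrnp, 9 Sf3 and 13 Prpf genes. Hnrnpa1l2-ps2, a member by its listed biotype, carries the symbol of a pseudogene.

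Testes of mice of the strain B6.129S7-Gt(ROSA)26Sor/J, which carries a lacZ reporter, were taken at 7 days of age, and the stem cells had been kept for 2 months on SNL 76/7 feeder cells with GDNF at 10 ng/mL and FGF2 at 0.5 ng/mL. They then grew for 7 days with 2 µM EPZ5676, the inhibitor, or with vehicle, which the protocols call DMSO and the sample descriptions abbreviate as ethanol. The series has 8 samples, with 2 H3K79me2 and 2 input samples for each condition, but the comparison rests on 1 peak list for each condition. No value therefore has a replicate error, no test between conditions was made, and the read depth behind the lists is unknown here. Over all chromosomes the control list held 47774 peaks and the EPZ5676 list 9182. Germ cells and feeder cells express splicing factors, and no step that parted them is named, so the peaks over these genes cannot be assigned to either cell type. A smaller share of marked cells and less mark in each cell cannot be told apart.

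Splicing removes introns from nascent transcripts and is carried out by the spliceosome, which assembles on each intron from small nuclear ribonucleoproteins. SR proteins (Srsf genes) bind exons and help to recruit the spliceosome, whereas hnRNP proteins coat nascent RNA and often act against exon inclusion. SF3a and SF3b belong to the U2 particle, which recognises the branch point, and the PRPF proteins act mainly in the U4/U6.U5 particle and at its activation. H3K79me2 is known as a mark of transcribed genes that lies over the first part of the gene body.

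Nearly all splicing factor genes carried H3K79me2 in the control, and few had a peak left after EPZ5676. Here marked means that peaks overlap the span by 1 bp or more. In the control 51 of 53 members were marked, or 96.2%, where 54.2% of all 20665 genes were. After EPZ5676 6 members were marked, or 11.3%, where 13.1% of all genes were. All 6 were among the 51 control-marked members, a share of 11.8%, against 19.9% of all control-marked genes. That comparison is not matched for gene length. All 6 span 20 to 50 kb, where 31.6% of control-marked members had an EPZ5676 peak, against 19.6% of all control-marked genes. Summed over members, the control peaks covered 461578 bp and the EPZ5676 peaks 5288 bp, a ratio of 87.3, which was 43.4 over all genes. These sums are not matched for gene length. Among genes of 20 to 50 kb, the class that held all 5288 bp, the ratio was 51.5 in members and 54.2 over all genes. No member had more bases covered after EPZ5676 than before, which 0.607% of all control-marked genes had. Without Srsf4, which held 2940 of the 5288 bp, the ratio summed over members was 188.8. The median member had 50.0% of its span covered in the control, against 3.75% of all genes. Over marked genes alone the medians were 50.0% and 33.3%.

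**Figure D1:**
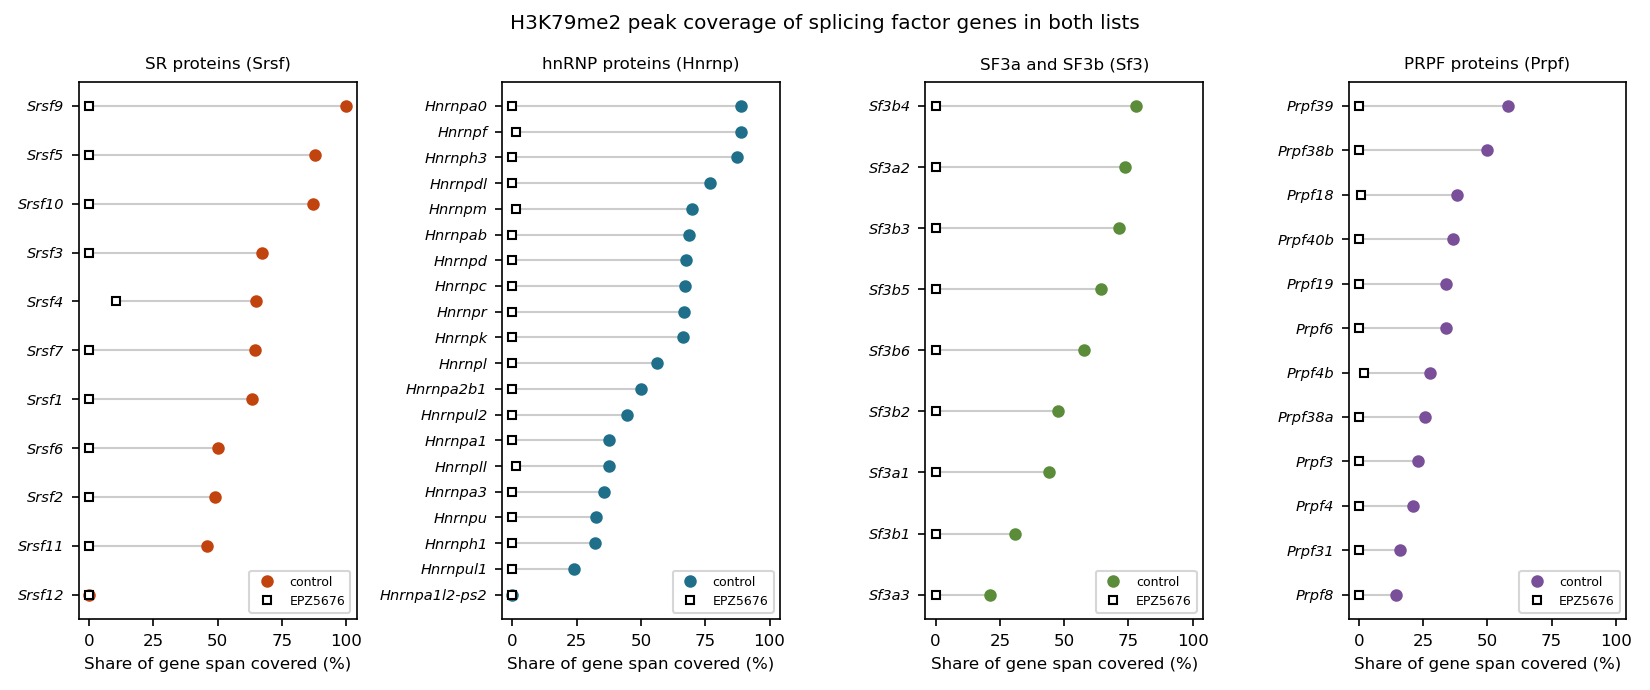
Share of the gene span (%) covered by H3K79me2 peaks in the control list (filled circles) and the EPZ5676 list (open squares) for 52 of the 53 genes, in 4 panels by family. Control shares run from 14.5% to 100% apart from 2 genes at 0, whereas EPZ5676 shares are at 0 for 46 of them and highest at Srsf4 (10.4%).

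The control peaks began just behind the gene start. Starts were taken from the RefSeq promoter table, which lists 47 of the 53 members and lacks Hnrnpll, Hnrnpul2, Prpf18, Sf3b4 and Sf3b5 among others. In 45 of 45 marked members with a listed start, a control peak lay in the first 1 kb behind it, as in 79.7% of all control-marked genes, and in all 45 a control peak lay 1 to 2 kb behind it, as in 88.2%. From 2 to 5 kb it was 43 of 43 genes, against 88.5%, and from 5 to 10 kb 23 of 30, against 75.6%. Mean coverage of 250 bp bins reached 100% in the members at 1500 to 1750 bp, and 80.8% over all control-marked genes in the same bin. At 5 kb it was 63.7% (42 genes) against 57.9%, and at 10 kb 48.5% (28 genes) against 43.8%. Past 5 kb the curve of the members, which rests on ever fewer genes, lay now above and now below that of all genes, with 37.6% against 45.5% at 9 kb and 49.7% against 39.2% at 13 kb.

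In most of these genes no control peak covered the start itself. In 36 of the 45 genes (80.0%, against 88.3% of all control-marked genes) the largest control peak began downstream of the start, with a median gap of 172 bp, ranging from 2 bp at Srsf3 to 1308 bp at Hnrnpu. At Hnrnpu a smaller control peak, of 558 bp, began 183 bp behind the start. Over all control-marked genes whose largest peak began downstream, the median gap was 521 bp. The peak ran across the start in the other 9 genes, Hnrnpa2b1, Hnrnpk, Prpf6, Sf3a1, Sf3b3, Srsf7, Srsf9, Srsf10 and Srsf11, where a control peak covered the start in 11.9% of all control-marked genes. It reached furthest upstream at Sf3a1, to −9696 bp, and Srsf11, to −9029 bp. Upstream coverage was also frequent, since 27 of 45 members (60.0%) had a control peak 1 to 2 kb before the start, against 36.1%, and 26 (57.8%) had one in the last 1 kb before it, against 32.2%. No EPZ5676 peak covered a member's start or the first 1 kb behind it, a stretch in which 1.07% of all control-marked genes had such a peak. From 1 to 2 kb behind the start 3 of 45 members had one, against 4.6%, from 2 to 5 kb 2 of 43, against 12.0%, and from 5 to 10 kb 2 of 30, against 10.3%. Before the start, 1 member (Srsf11) had an EPZ5676 peak within 1 kb, against 0.287%, and 1 (Hnrnpdl) at 1 to 2 kb, against 0.718%.

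**Figure D2:**
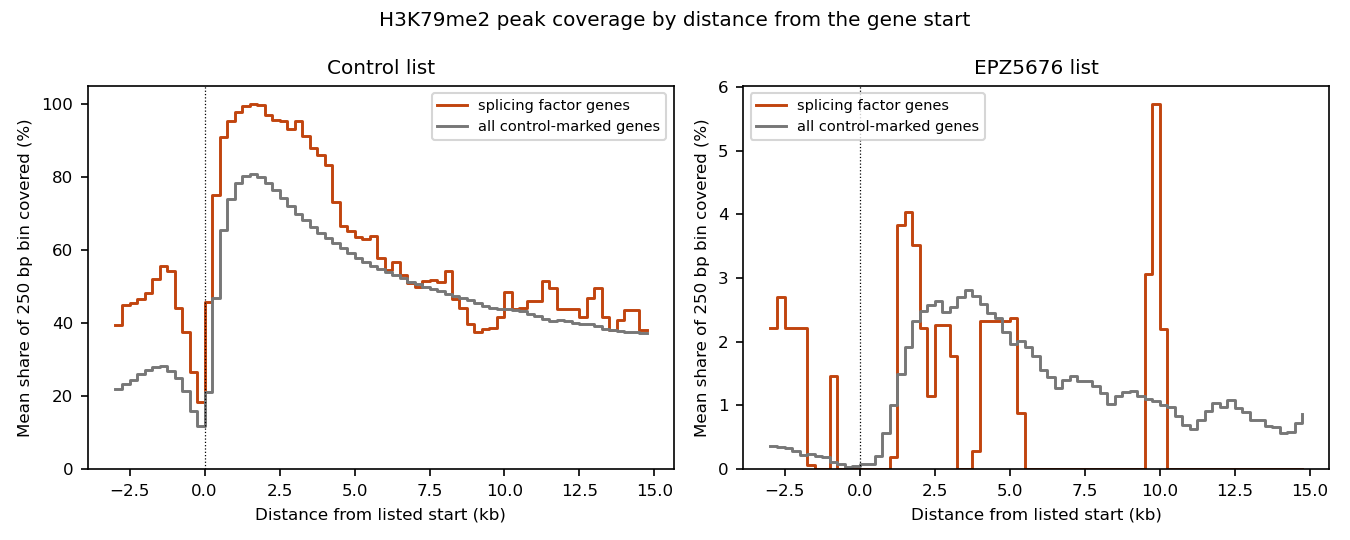
Mean share (%) of each 250 bp bin covered by peaks against distance from the listed start (kb), for the control list (left) and the EPZ5676 list (right, on its own scale), over 45 control-marked splicing factor genes and 9049 control-marked genes in all; bins behind the start hold only genes long enough to reach them. In the control both curves dip at the start and peak at 1500 to 1750 bp, at 100% and 80.8%.

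Promoter sequences are shown for genes with a listed start on which the comparison turns: Srsf4, Prpf4b and Hnrnpm, which had an EPZ5676 peak further in, Sf3b1, with the strongest control peak, Srsf9, whose start lay inside a control peak, and Srsf12, which had no peak. They are RefSeq sequences (GRCm38.p6), from 250 bp before to 50 bp behind the listed start, written 5′ to 3′ on the gene's strand. Capitals mark matches, on either strand, to the 7 motifs given after the sequences.
Srsf4, chr4:131873387-131873686, plus strand: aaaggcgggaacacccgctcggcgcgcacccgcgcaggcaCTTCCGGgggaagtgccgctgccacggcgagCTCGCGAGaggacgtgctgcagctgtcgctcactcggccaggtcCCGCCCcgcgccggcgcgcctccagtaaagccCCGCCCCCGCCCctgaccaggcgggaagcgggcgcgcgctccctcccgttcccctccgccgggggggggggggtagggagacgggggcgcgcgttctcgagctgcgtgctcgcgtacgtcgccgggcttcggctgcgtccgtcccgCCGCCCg
Prpf4b, chr13:34875279-34875578, plus strand: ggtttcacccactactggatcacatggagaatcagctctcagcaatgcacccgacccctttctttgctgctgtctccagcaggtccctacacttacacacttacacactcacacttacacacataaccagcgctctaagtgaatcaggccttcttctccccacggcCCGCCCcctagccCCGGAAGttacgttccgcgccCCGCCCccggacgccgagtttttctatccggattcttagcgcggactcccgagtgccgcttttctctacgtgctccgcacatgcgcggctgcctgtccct
Hnrnpm, chr17:33685409-33685708, minus strand: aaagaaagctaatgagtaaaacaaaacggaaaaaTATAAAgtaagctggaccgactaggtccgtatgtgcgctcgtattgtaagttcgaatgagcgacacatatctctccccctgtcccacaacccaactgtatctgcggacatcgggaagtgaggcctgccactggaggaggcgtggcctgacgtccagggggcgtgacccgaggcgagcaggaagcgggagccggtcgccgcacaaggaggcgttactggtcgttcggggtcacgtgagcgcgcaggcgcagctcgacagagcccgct
Sf3b1, chr1:55027429-55027728, minus strand: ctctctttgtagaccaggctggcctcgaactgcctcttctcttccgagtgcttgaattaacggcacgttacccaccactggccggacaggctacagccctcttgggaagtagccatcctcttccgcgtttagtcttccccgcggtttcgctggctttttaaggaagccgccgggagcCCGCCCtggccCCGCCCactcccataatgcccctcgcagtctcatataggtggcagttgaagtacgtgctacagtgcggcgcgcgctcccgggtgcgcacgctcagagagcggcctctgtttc
Srsf9, chr5:115326927-115327226, plus strand: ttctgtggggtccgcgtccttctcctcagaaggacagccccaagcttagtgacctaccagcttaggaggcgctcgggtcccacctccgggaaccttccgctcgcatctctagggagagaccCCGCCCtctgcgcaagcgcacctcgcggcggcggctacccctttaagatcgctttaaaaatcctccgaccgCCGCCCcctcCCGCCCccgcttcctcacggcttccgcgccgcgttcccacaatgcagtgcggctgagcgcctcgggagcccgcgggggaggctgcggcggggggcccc
Srsf12, chr4:33209022-33209321, plus strand: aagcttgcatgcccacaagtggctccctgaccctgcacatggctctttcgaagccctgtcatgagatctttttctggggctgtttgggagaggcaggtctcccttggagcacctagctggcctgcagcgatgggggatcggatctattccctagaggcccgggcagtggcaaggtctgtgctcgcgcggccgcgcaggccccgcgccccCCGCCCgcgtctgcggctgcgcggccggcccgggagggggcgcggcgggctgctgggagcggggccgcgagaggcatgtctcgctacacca

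No control peak touched the printed windows of Srsf4, Prpf4b, Hnrnpm, Sf3b1 and Srsf12, and at Srsf9 all 300 bp were covered. The window of the unmarked Srsf12, with 26 CG dinucleotides and 69.0% G and C, lay within the range of the marked members. Over the 47 windows the median was 26 CG dinucleotides (range 3 to 52), against 22 for all control-marked genes and 4 for genes without a control peak. The lowest count, 3, belonged to Hnrnpa1l2-ps2, the other member without a peak.

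Promoters of SF3 genes shared the motif CCGGAAG, the core bound by ETS factors, which was found in 6 of 7 of them (Sf3a1, Sf3a2, Sf3a3, Sf3b2, Sf3b3 and Sf3b6, but not Sf3b1). In the other families it was in 4 of 11 Srsf, 3 of 11 Prpf and 2 of 18 Hnrnp windows. It was in 15 of all 47 member windows (31.9%), in 12.3% of all 16457 windows and in 19.8% of those of control-marked genes. The motif TCGCGAG was in 5 windows, those of Srsf4, Srsf10, Hnrnpdl, Hnrnph1 and Hnrnph3 (10.6%), against 2.71% of all and 4.44% of control-marked genes. A match to it can overlap its own reverse complement, and none of the 7 motifs contains another. CCAAT was in 51.1% of member windows, against 39.1% of all and 39.2% of control-marked genes. GGGCGG was in 68.1%, against 47.3% of all and 67.0% of control-marked genes. TATAAA was in 12.8%, against 13.5% of all and 6.13% of control-marked genes. GCATGCG was in 4.26%, against 4.59% and 7.28%. AAGATGG was in 6.38%, against 6.4% and 7.36%. These are matches of letters and no measure of binding.

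Of the 11 SR protein genes, 10 were marked in the control, with a median of 64.7% of the span covered, and Srsf4 alone had an EPZ5676 peak. Srsf9, whose product also acts in splice site choice, was covered over all of its 6681 bp (chromosome 5, 115327163 to 115333843), 6079 bp of which lie outside the overlapping gene Gatc. Peaks covered 87.7% of Srsf5 (4395 bp) and 87.1% of Srsf10 (12329 bp), whose product turns into a splicing repressor when dephosphorylated. Srsf3, the gene of the smallest SR protein, had 7208 bp covered, with a fold enrichment over background of up to 7.01 in the authors' list, next to 7.02 at Srsf4, the highest of the group. Srsf7 (64.4%), Srsf1 (63.5%), the founding member of the group, and Srsf6 (50.1%) followed. Srsf2 (1844 bp, 48.8%) and Srsf6 (2813 bp) had the fewest covered bases of the marked genes, and Srsf11 had the smallest share (11758 bp, 45.7%). Srsf12 (chromosome 4, 33208991 to 33233343), an SR-related gene, had no peak in either list.

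Of the 20 hnRNP genes, 19 were marked in the control, with a median of 66.3% of the span, and 3 had an EPZ5676 peak. The longest coverage was at Hnrnpm (27442 bp) and Hnrnpr (23455 bp), and the shortest at Hnrnpa0 (2386 bp), a short gene covered over 89.1%, and Hnrnpa1 (2545 bp, 37.7%). Hnrnpf, whose product binds G-rich RNA, was covered over 22439 bp or 88.8%, and its relative Hnrnph3 over 87.3%, while Hnrnph1 of the same subfamily had 32.2%. Shares between 60% and 80% were found at Hnrnpdl (76.8%), Hnrnpm (70.0%), Hnrnpab (68.5%), Hnrnpd (67.5%), Hnrnpc (67.2%), Hnrnpr (66.9%) and Hnrnpk (66.3%). Hnrnpc encodes the core hnRNP C protein that holds nascent RNA in particles. Lower shares were found at Hnrnpl (56.1%), Hnrnpa2b1 (50.0%), Hnrnpul2 (44.4%), Hnrnpll (37.5%), Hnrnpa3 (35.7%), Hnrnpu (32.4%), the scaffold attachment factor gene, and Hnrnpul1 (23.9%). Hnrnpa1l2-ps2, which lies inside Cdh18, had no peak in either list. The highest fold enrichment of the group was 7.29, at Hnrnpf.

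All 9 genes with an Sf3a or Sf3b symbol were marked in the control, with a median of 57.8% of the span, and none had an EPZ5676 peak. Sf3b1, which encodes the subunit that clamps the branch point (chromosome 1, 54985169 to 55027501), had the highest fold enrichment of all members, 8.39, in a peak of 11555 bp that began 98 bp behind the start. Peaks covered 13131 bp or 31.0% of it. Sf3b3 (25936 bp, 71.4%) had the longest coverage, and its peak ran into the neighbouring Cog4. The smallest gene, Sf3b5, of 734 bp, was covered over 471 bp. The widest share was at Sf3b4 (77.8%), and Sf3a3, with 21.0% (3681 bp), had the narrowest. Sf3a2 (73.7%), Sf3b6 (57.8%), Sf3b2 (47.6%) and Sf3a1 (43.9%) lay between.

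All 13 Prpf genes were marked in the control, with a median of 33.8% of the span, the lowest of the 4 families, and 2 had an EPZ5676 peak. Prpf8, which encodes the protein at the catalytic centre of the spliceosome (chromosome 11, 75486777 to 75509447), had the lowest share of all marked members, 14.5%, in a single peak of 3281 bp. Its fold enrichment was 5.15, above the median of the members, and the highest of the family was 6.35, at Prpf4b. Among genes of the U4/U6.U5 particle the shares were 16.1% at Prpf31 (2017 bp, the shortest coverage of the family), 20.9% at Prpf4, 22.8% at Prpf3 and 33.8%, the family median, at Prpf6. Prpf19, a ubiquitin ligase gene of the complex named after it, had 34.0%. Long coverage was found at Prpf6 (18367 bp) and at Prpf39 of the U1 particle, which also had the highest share (15731 bp, 58.1%). Prpf38b (50.0%), Prpf18 (38.0%), Prpf40b (36.5%), Prpf4b (27.5%) and Prpf38a (25.8%) lay below it. Only 565 of 3730 bp at Prpf38a and 2337 of 8000 bp at Prpf40b lay outside a neighbouring gene, Orc1 and Fam186b.

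In 26 of 51 marked members (51.0%) the whole coverage came from 1 peak, against 42.3% of all control-marked genes. At like length the shares were close, with 12 of 16 members under 10 kb against 80.9%, 57.1% from 10 to 20 kb against 55.6%, and 31.6% from 20 to 50 kb against 33.5%. The median of the highest fold enrichment was 4.51 (range 2.85 to 8.39), against 3.36 over all control-marked genes. By length it was 3.65 against 3.06 under 10 kb, 3.79 against 3.35 from 10 to 20 kb and 5.45 against 3.59 from 20 to 50 kb. The 15 members that overlap another protein-coding gene cannot be given their whole coverage alone, but among the 38 others 37 were marked in the control.

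Coverage was set beside genes of like length, since Prpf genes (median 22671 bp) were longer than Srsf genes (7290 bp). Under 10 kb, 16 of 17 members were marked, against 34.4% of all genes in that class. All 14 members of 10 to 20 kb were marked, against 59.3%. From 20 to 50 kb 19 of 20 were marked, against 66.1%. Both members over 50 kb were marked, against 68.8%. Among marked genes, the median share of the span covered was 66.4% in members under 10 kb, against 51.6% in all marked genes of that class. From 10 to 20 kb it was 34.8% against 33.4%, and from 20 to 50 kb 45.7% against 29.1%. The share was thus close to the background from 10 to 20 kb and above it in the classes on either side, with no test made.

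**Figure D3:**
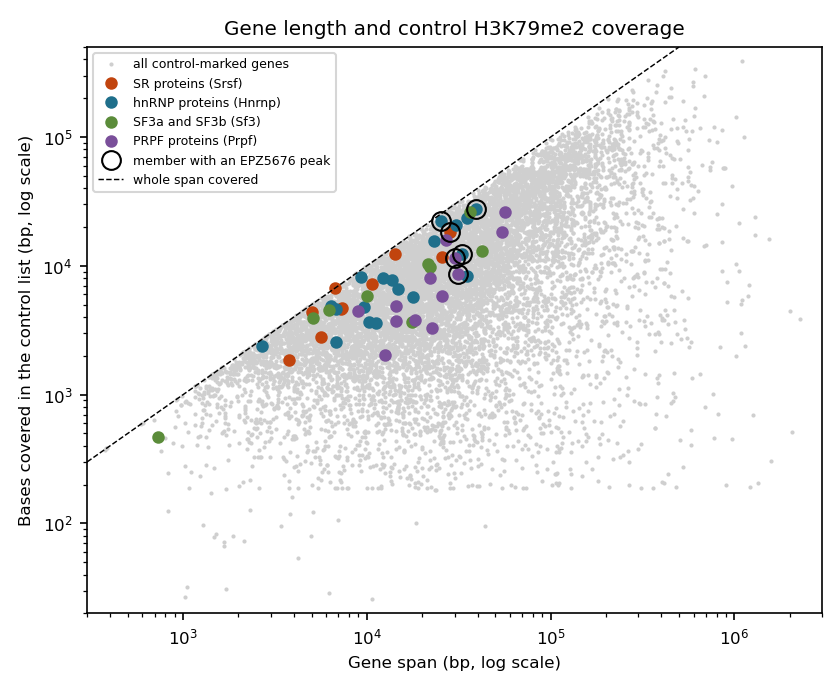
Bases covered in the control list against gene span (bp, both axes on log scales) for all control-marked autosomal genes (grey) and the 51 marked splicing factor genes (coloured by family); the dashed line marks a fully covered span and black rings mark members with an EPZ5676 peak. Members lie both above and below the middle of the cloud at their length, and the 6 ringed genes have spans of 25283 to 39226 bp.

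The 6 genes that kept a peak after EPZ5676 were Srsf4, Prpf4b, Hnrnpm, Hnrnpll, Hnrnpf and Prpf18. All lay in the class of 20 to 50 kb, where 6 of 19 control-marked members (31.6%) had an EPZ5676 peak, against 19.6% of all control-marked genes of that length. Under 10 kb it was 0 of 16, against 2.02%, and from 10 to 20 kb 0 of 14, against 7.92%. By control coverage, 0 of 22 members under 5 kb, 1 of 13 with 5 to 10 kb, 3 of 10 with 10 to 20 kb and 2 of 6 with over 20 kb had an EPZ5676 peak. The shares over all genes in those classes were 4.88%, 12.7%, 26.6% and 54.9%.

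Srsf4, an SR protein gene (chromosome 4, 131873530 to 131901725), had more EPZ5676 coverage than the other 5 together. Its covered length was 18321 bp in the control and 2940 bp under EPZ5676, in 4 peaks of 336, 770, 1373 and 461 bp. These began 1319, 2421, 3970 and 9693 bp behind the start, all inside the control peak of 18055 bp that began 413 bp behind it. The peaks covered 10.4% of the gene, a share reached by 58 of the 2228 genes with both peaks (2.6%), whereas 292 of them (13.1%) had as many bases covered after EPZ5676. At least 4 EPZ5676 peaks were found in 4.18% of all control-marked genes and in 21.0% of the 2228. Srsf4 was also the 1 member that kept at least 10% of its control coverage, at 16.0%, as did 4.78% of all control-marked genes and 24.0% of the 2228. The 2228 genes are not matched to Srsf4 in length, since 1374 of them span over 50 kb.

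Each of the other 5 had 1 short EPZ5676 peak, so that 1 of 6 members had more than 1, against 51.9% of all genes with both peaks, whatever their length. Prpf4b, which encodes a kinase of the spliceosome, had 8596 bp covered in the control and a peak of 668 bp under EPZ5676, beginning 1228 bp behind the start. Hnrnpm had 27442 and 597 bp, beginning at 1702 bp. Hnrnpf had 22439 and 353 bp, beginning 9577 bp behind the outermost of its 4 listed starts. Hnrnpll, a regulator of exon choice in lymphocytes, had 12287 and 440 bp. Prpf18, a factor of the second step of splicing, had 11436 and 290 bp. All 9 EPZ5676 peaks in members lay wholly inside the largest control peak of their gene. That peak held over 90% of the control-covered bases in 35 members, and no like count over all genes was set beside it.

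Those 9 peaks were close to the ordinary peak of the EPZ5676 list in strength. Their fold enrichment was 2.64 to 2.91, with a median of 2.75 over the whole list, and their −log10 q was 1.26 to 1.79, with a median of 1.43. At a −log10 q of at least 2, no member had an EPZ5676 peak, and 418 of all 20665 genes did. With at least 500 bp covered, 3 members (Srsf4, Prpf4b and Hnrnpm) had EPZ5676 coverage, against 8.23% of all genes, and 50 had control coverage, against 52.2%.

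**Figure D4:**
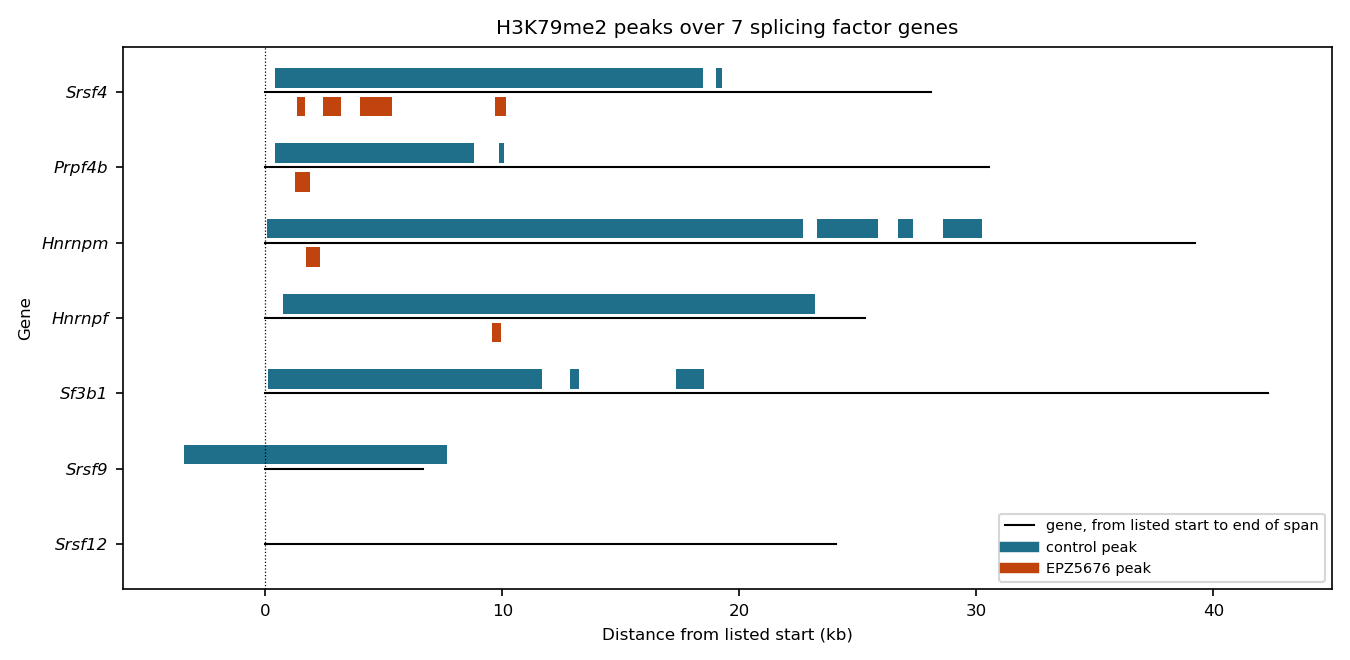
Control peaks (blue, above the line) and EPZ5676 peaks (red, below it) at 7 genes against distance from the listed start (kb); the line is the gene from its start to the end of its span. Control peaks begin close behind the start except at Srsf9, where the peak crosses it, and Srsf12, which has none; each EPZ5676 peak lies under a wide control peak.

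Another 5 members had an EPZ5676 peak within 10 kb of their span and none inside. No share over all genes was set beside this count, so it cannot be called high or low. At Srsf11 the control peak of 20726 bp ran across the start into Lrrc40, and that upstream part held 2 EPZ5676 peaks, of 164 and 470 bp, whose upstream ends lay at −992 and −3735 bp. The narrower one had a −log10 q of 2.40, above all 9 peaks inside members. The peaks near Hnrnpdl (963 and 1427 bp, in Enoph1), Hnrnpa1 (584 bp, in Cbx5) and Prpf38a (193 bp, in Orc1) lay in control peaks that did not touch the member. The one near Hnrnpa1l2-ps2 (534 bp, in Cdh18) lay in no control peak.

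Other genes of the splicing machinery were also marked in the control. Their shares with an EPZ5676 peak rest on few genes. They stand beside 19.9% of all control-marked genes, which are not matched for gene length. All 26 snRNP and LSm genes, which encode the proteins of the small nuclear ribonucleoproteins, were marked, led by Snrnp48 (15883 bp) and Snrnp70 (14964 bp), with a median share of 70.6%. Of them 3 (11.5%) had an EPZ5676 peak, Snrpd1 (8567 bp in control peaks and 1981 bp in EPZ5676 peaks), Snrpd3 (13980 and 177 bp) and Snrnp40 (9854 and 234 bp). Snrpd1 encodes a core Sm protein, and its EPZ5676 peaks covered 19% of the gene, more than at any of the 53 members.

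All 33 genes of U2AF, the complex around Prpf19 and spliceosomal helicases were marked, with a median share of 28.6%, led by Ctnnbl1 (44166 bp) and Dhx15 (38742 bp). An EPZ5676 peak lay on 6 of them (18.2%, close to the 19.9% of all control-marked genes), Dhx15 (1113 bp), Cwc22 (559 bp), Sart3 (518 bp), U2af2 (408 bp), Cdc5l (344 bp) and Usp39 (220 bp). Dhx15 encodes a helicase that takes the spliceosome apart, and U2af2 the subunit that binds the polypyrimidine tract. All 15 genes of splicing kinases and SR-like factors were marked, led by Srpk2 (111130 bp, overlapping Kmt2e) and Srrm1 (23857 bp). Of these, 3 had an EPZ5676 peak, Tnpo3, the importer of SR proteins (1641 bp), Srrm1 (1052 bp) and Srpk1, a kinase of SR proteins (882 bp). A share of 3 of 15 is also close to that of all control-marked genes.

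Among 30 alternative splicing regulators, which are long genes with a median span of 33450 bp, 28 had a control peak, and EPZ5676 peaks lay on 12 of the 28 (42.9%). Over all control-marked genes the share was 19.6% from 20 to 50 kb and 42.3% over 50 kb. Rbfox2 led with 191727 bp in the control and 7656 bp in 11 EPZ5676 peaks, and Celf1 had 62459 and 6119 bp in 8 peaks. The others were Celf2 (2177 bp after EPZ5676), Qk (1456 bp), Mbnl2 (1301 bp), Matr3 (1189 bp), Ptbp3 (1076 bp), Mbnl1 (1019 bp), Ewsr1 (873 bp), Elavl1 (740 bp), Ptbp2 (633 bp) and Khdrbs1 (610 bp). Nova1, a neuronal regulator, and Esrp2, an epithelial one, had no control peak. These lists differ from the 53 members in gene length, and no test of the differences was made.

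**Figure D5:**
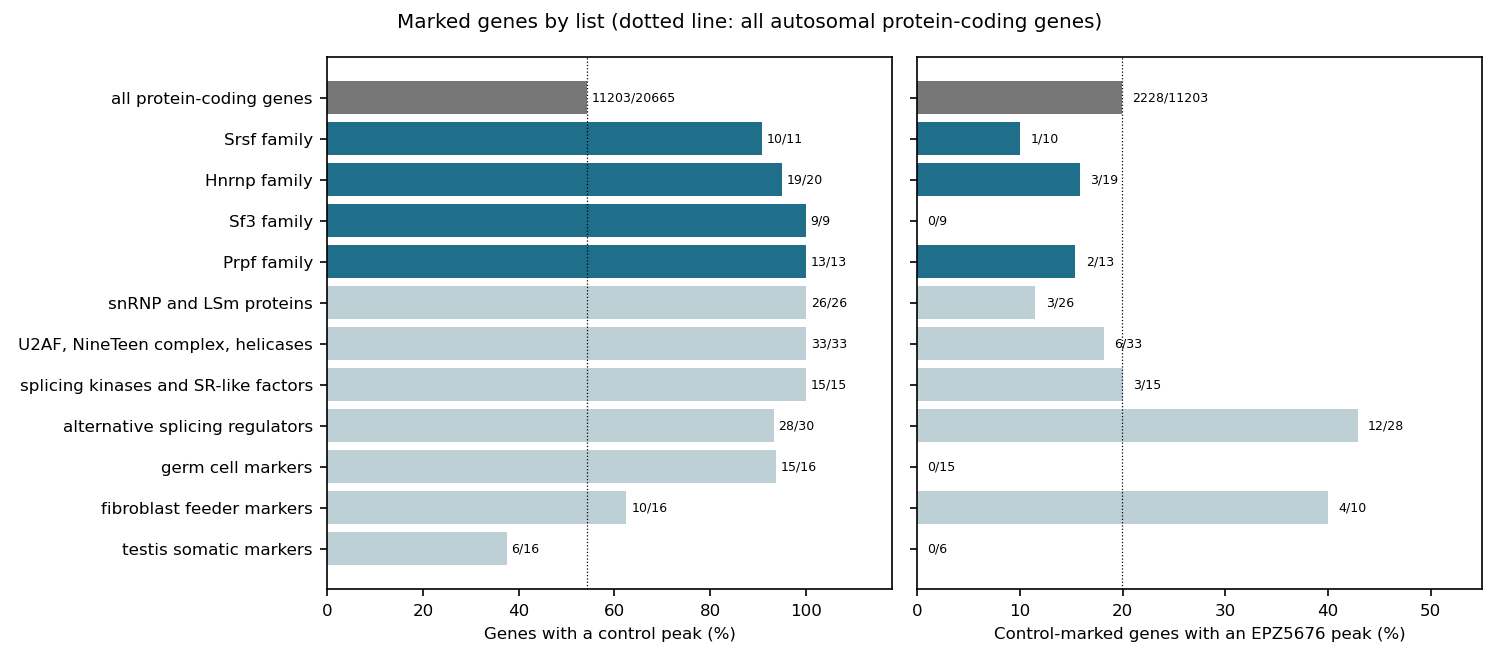
Share of genes with a control peak (left, %) and share of control-marked genes with an EPZ5676 peak (right, %) for the 4 families, 4 lists of other splicing genes and 3 marker lists, with counts beside the bars. The dotted lines mark all autosomal protein-coding genes (54.2% and 19.9%). All 4 families lie right of the first line and left of the second. The second shares rest on few genes (1 of 10 Srsf, 3 of 19 Hnrnp, 0 of 9 Sf3 and 2 of 13 Prpf). They are not matched for gene length: from 20 to 50 kb, 31.6% of control-marked splicing factor genes had an EPZ5676 peak, against 19.6%.

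The labelled cell type was checked against marker genes. Of 16 germ cell markers 15 were marked in the control, led by Zbtb16 (168701 bp) and Gfra1 (96347 bp), and none had an EPZ5676 peak. Of 16 fibroblast markers 10 (62.5%) were marked in the control, a share above that of all genes. Their highest fold enrichment was 2.69, below that of every marked splicing factor gene. Their summed coverage came to 56149 bp in the control list and 8872 bp in the EPZ5676 list, or 15.8% of it, against 1.15% for the splicing factor genes. Twist2, Prrx1, Fbn1 and Sparc had EPZ5676 peaks, and Col1a2, Col3a1, Vim, Lum, Dcn and Postn had no peak in either list. Of 16 testis somatic markers 6 (37.5%) were marked in the control and none of those had an EPZ5676 peak. Fshr had an EPZ5676 peak of 179 bp and no control peak. The part of feeder cells in the peaks over splicing factor genes was not tested.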

How the data were processed

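H3K79me2 ChIP-seq peak lists from control and EPZ5676 cultures were used, 1 for each condition. The tools named per the submitters' processing notes are bcl2fastq 2.20.0.422, deepTools and Trimmomatic, with mm10 as build. Not given in the sources used here are the aligner, the peak caller, and any pooling of replicates or use of inputs. A list is a table of 9 columns without a header. The deposited score, fold enrichment (a ratio of signal to background), −log10 p-value and −log10 q-value of each peak are the authors' own and served only to describe or filter peaks. The lowest deposited −log10 p was 2.36 in the control and 4.03 in the EPZ5676 list. Unmapped value columns numbered 0.

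Covered bases per gene were summed over RefSeq GRCm38.p6 spans (the assembly mm10 also names) with Python 3.11.15, numpy 2.4.6 and pandas 2.3.3, and the routine was tested on simulated data. Wide stretches and adjacent peaks depend on how the peak caller joined regions, so covered bases are not amounts of mark. Of several listed starts, the one nearest the outer end of the span was used. The members and gene lists were chosen with earlier results of these data known. Values are given for every member with an EPZ5676 peak or without a control peak, for the 2 longest and 2 shortest in control coverage of each family, for the highest and lowest shares and folds, and for the 2 longest and all EPZ5676-marked genes of the other lists; further values were added after they were seen. Planned protein features were not computed because no protein table was used here. The values of 1 gene are not reported here, though it is in the counts and medians.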

Additional observations from a re-analysis of the deposited data

How the results depend on the processing

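The control calls held under the alternatives run but for 1: 50 or 51 of 53 members were marked, 50 of 52 without Srsf4, and 37 of 38 with genes that overlap no other gene, and the median share covered stayed between 44.4% and 50.0%. At 500 bp the call lost was that of Sf3b5, which has 471 bp covered. The EPZ5676 calls did not hold. The number of members with an EPZ5676 peak, and the number of control-marked members with one, fell from 6 to 3 with at least 500 bp covered, to 1 with at least 10% of the span covered, to 1 with peaks at least 1000 bp wide (Srsf4 in both cases) and to 0 with a −log10 q of at least 2. Over all genes the number with an EPZ5676 peak also fell, from 2697 to 1701 with at least 500 bp covered, and further at a −log10 q of at least 2. With spans extended by 1 kb the member counts were 8 and 7, with Srsf11 and Hnrnpa1l2-ps2 added and the latter without a control peak. The ratio of summed covered bases, 87.3, became 323.0 with peaks at least 1000 bp wide and 188.8 without Srsf4, an alternative chosen after seeing the data. It could not be formed at a −log10 q of at least 2, where no EPZ5676 base was left. It was 79.3 with the control list held to the lowest −log10 p of the EPZ5676 list. Leaving out Hnrnpa1l2-ps2, also chosen after seeing the data, gave 51 of 52 and 6. With the listed start nearest the largest peak, likewise chosen after seeing the data, the median distance from start to peak over all 45 genes was 100 bp in place of 136 bp. No paired analysis was possible because each condition has 1 peak list and no test was made. Read depth, and so the depth at which a missing EPZ5676 peak could have been called, is unknown.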
